A study of Mus musculus with 12 samples.

Results

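Rod bipolar cells are the interneurons that carry rod signals from the outer to the inner retina. Here they were chosen by the measured counts of 10 genes, and 4232 of 25472 cells met the rule. A cell needed at least 200 detected genes, at least 2 of Prkca, Sebox, Vstm2b and Car8, at least 2 of Trpm1, Pcp2, Gng13 and Isl1, and no count of Scgn or Igfn1. The cells came from 12 Drop-seq libraries of mouse retina, a droplet method that counts unique molecular identifiers (UMIs) at RNA 3' ends. All pups were of the C57B6 strain, and retinas were collected on postnatal day 14 (P14) or day 17 (P17). In oxygen-induced retinopathy (OIR), pups breathed 75% oxygen from day 7 to day 12 beside a foster mother and room air after that, while pups of the normoxic control (NORM) stayed in room air with their own mother. Retinas were taken whole or after rods had been depleted. OIR had 3 whole and 2 rod-depleted libraries at P14, and 2 whole and 1 rod-depleted at P17. NORM had 1 library for each age and fraction. No label states whether libraries are from different animals. The spread behind each p-value is therefore that among libraries, and part or all of it can be technical.

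A rod bipolar cell depolarises when light lowers glutamate release from rods. Glutamate acts on the receptor mGluR6 (Grm6), whose G protein closes the cation channel TRPM1. The axon ends deep in the inner retina on a ribbon synapse, where AII amacrine cells read its output and other amacrine cells inhibit it through GABA receptors. In OIR, high oxygen halts vessel growth and the retina becomes hypoxic once the pups return to room air. In hypoxia the factor HIF-1 is stabilised and turns on genes of glycolysis and of vessel growth.

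Members numbered 2845 in the 8 OIR libraries and 1387 in the 4 NORM libraries. OIR whole retina gave 80, 160 and 183 members at P14 and 331 and 359 at P17, and OIR rod-depleted retina gave 634 and 580 at P14 and 518 at P17. NORM whole retina gave 153 at P14 and 47 at P17, and NORM rod-depleted retina gave 542 at P14 and 645 at P17. The median depth of a member was 1235 UMIs. It ran from 740 UMIs in NORM whole retina at P17, the shallowest library, to 2544 in OIR whole retina replicate 1 at P17. The members held 4274055 UMIs in OIR and 1866820 in NORM. Of 14 cell barcodes that occurred in more than 1 library, 1 occurred among members. NORM whole retina at P14 was matched with less certainty, because its columns carry replicate number 8 and not 1.

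The label was checked against genes outside the rule, and those shown here fit it apart from Nyx. Levels below are means per 10000 UMIs, averaged over libraries with at least 20 cells of the class, with their SD (n = 12, and n = 8 for rods). Gpr179, which holds the mGluR6 signalling complex together, was at 15.2 ± 4.46 in members, against 4.48 ± 1.24 in cells with cone bipolar markers, 0.722 ± 0.289 in Müller cells and 0.646 ± 0.252 in rods. Strip2 was at 5.58 ± 1.61 in members and 0.590 ± 0.321 in cone bipolar cells. Genes shared by all ON bipolar cells were closer, with Grm6 at 10.7 ± 3.12 in members and 8.25 ± 4.25 in cone bipolar cells. The glial gene Glul was at 1.73 ± 0.626 in members against 99.8 ± 31.1 in Müller cells. The other classes were set by marker counts too, with 1599 cone bipolar, 2985 Müller and 4057 rod cells.

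The genes of the rule are described without a test, since they chose the cells. Over all members Pcp2 stood at 145, Trpm1 at 83.0, Gng13 at 57.2, Isl1 at 34.8, Car8 at 20.2, Prkca at 15.3, Sebox at 12.1 and Vstm2b at 4.89 per 10000. At the inner edge, the 69 members with exactly 2 and 2 genes had Pcp2 at 57.5 and Gpr179 at 11.4 with a median of 675 UMIs. Just outside, 1253 cells with 1 of the first 4 genes had Pcp2 at 101 and Gpr179 at 11.2 with a median of 810 UMIs, so they too carried rod bipolar genes. A further 727 cells left out for a count of Scgn or Igfn1 had Gpr179 at 13.9. The 77 cells with only 1 of the second 4 genes were unlike members, with Gpr179 at 1.09.

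Other cells' RNA in the members was compared between the groups. The summed level of 14 rod markers ran from 7.47 to 64.4 per 10000 in OIR libraries and from 7.07 to 144.6 in NORM libraries. The highest value belonged to NORM whole retina at P17. The sum of 12 Müller markers ran from 5.34 to 13.4 in OIR and from 4.07 to 12.9 in NORM. Microglia markers summed to 0 to 1.69 in OIR and 0.0559 to 1.08 in NORM. The 6 lens genes were at 0 in all NORM libraries and had a median of 0 in OIR, with 14.1 and 13.1 in OIR whole retina replicates 2 and 3 at P14.

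Members of OIR retina carried more RNA of a small number of genes, among them enzymes of glycolysis, targets of HIF-1 and metallothioneins. By p-value the first 6 were Hk2, Matk, Pfkp, Gm15283, Piwil4 and Selenbp1. Of 6965 genes tested, 27 were higher in OIR and none was lower (0.388% of genes; limma with Benjamini-Hochberg adjustment at 0.05, 8 OIR against 4 NORM libraries with age and fraction as terms). At an unadjusted p under 0.05 the count was 1118. The count of 27 was 9 without NORM rod-depleted retina at P14 and 20 to 31 without any other library. The genes called changed as well, and some of these fits also called 1 lower gene. Only 8 of the 27 passed in all 12 of these fits: Aldoc, Fam162a, Gm15283, Hk2, Matk, Pfkp, Piwil4 and Selenbp1. Without NORM whole retina at P14, 31 genes were called, of which 16 were among the 27. In 24 of the 27 genes the lowest of the 8 OIR values exceeded the highest of the 4 NORM values, and Fam162a, Mt1 and Mt2 had 7 such libraries. Among all genes tested, 1.16% had every OIR library above every NORM library and 0.732% had every one below. By the dates in the labels, OIR and NORM shared a library date at P14, in 1 pair of whole retinas and 1 pair of rod-depleted retinas. All 27 genes were higher in OIR in both pairs. Of all 6965 genes tested, 3301 were higher in OIR in the whole pair and 3318 in the rod-depleted pair. The 27 genes were called with these same libraries, so neither the separation of OIR from NORM libraries nor the pairs are a separate check of them. The labels give no date for either OIR whole-retina library at P17. These libraries formed a block of their own wherever library date is a block. With such a block the OIR effect comes only from the same-date pairs at P14, as no other date held both oxygen groups.

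**Figure D1:**
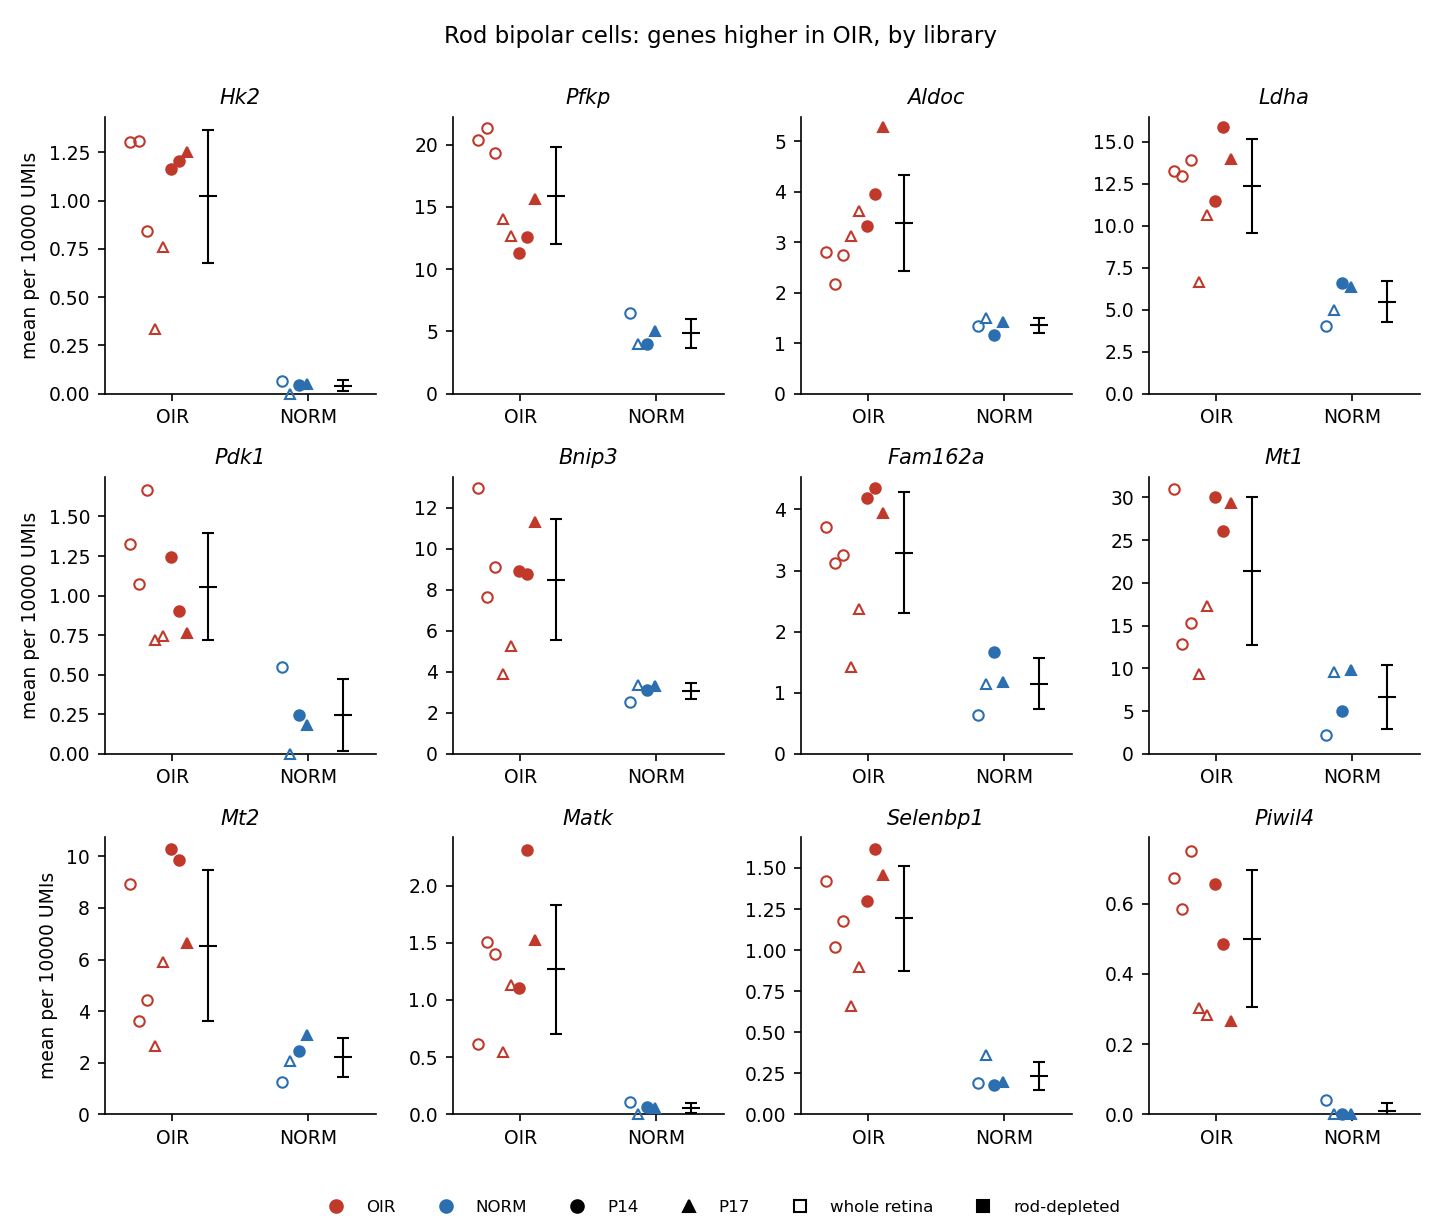
Mean level per 10000 UMIs (vertical axes, linear) of 12 genes that passed the test, in the rod bipolar cells of each library, with OIR in red and NORM in blue, circles for P14, triangles for P17, open symbols for whole retina and filled ones for rod-depleted; bars are mean and SD over libraries. OIR libraries lie above all NORM libraries except 1 library each for Fam162a, Mt1 and Mt2, as for Mt1 where OIR whole retina replicate 1 at P17 (9.35) lies below the NORM libraries at P17 (9.58 and 9.8).

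Glycolysis was the group with the most genes past the test, 4 of 23 tested members of a list of 26, and none fell. Over all genes tested, 0.388% were called. The list's median log2 difference was 0.44, against 0.08 over all genes tested, and 20 of 23 members were positive. The 4 genes act at separate steps. Hexokinase 2 (Hk2, chr6:82725025-82774454 on the minus strand of GRCm38) phosphorylates glucose as the entry step. It was at 1.30, 1.31 and 0.842 per 10000 in OIR whole retina at P14, 0.337 and 0.760 in OIR whole retina at P17, 1.16 and 1.21 in OIR rod-depleted retina at P14 and 1.25 at P17. In NORM it was at 0.0658 and 0 in whole retina at P14 and P17, and 0.0468 and 0.0474 in rod-depleted retina. All OIR libraries were thus well above all NORM libraries, and Hk2 was nearly absent from NORM members. Its log2 difference was 2.27 ± 0.24 (SE; adjusted p = 0.000206, limma), and it passed with any 1 of the 12 libraries left out.

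Phosphofructokinase, platelet form (Pfkp, chr13:6579768-6648777, minus strand), controls the committed step. Pfkp was at 20.3, 21.4 and 19.3 in OIR whole retina at P14, 14.0 and 12.7 in OIR whole retina at P17, 11.3 and 12.6 in OIR rod-depleted retina at P14 and 15.6 at P17, against 6.44, 3.95, 3.95 and 5.02 in the NORM libraries. No OIR library came within the NORM range, and the log2 difference was 1.6 ± 0.18 (adjusted p = 0.000227, limma). Aldolase C (Aldoc), which splits fructose bisphosphate, averaged 3.38 ± 0.947 in OIR and 1.35 ± 0.151 in NORM (SD, n = 8 and 4). Its log2 difference was 1.25 (adjusted p = 0.00162, limma). Lactate dehydrogenase A (Ldha), which turns pyruvate into lactate, averaged 12.4 ± 2.81 in OIR and 5.48 ± 1.21 in NORM (1.15 ± 0.19, adjusted p = 0.00643, limma). It lost its call when 1 of the 12 libraries was left out.

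Other members of the list did not pass. Aldoa was at 19.7 ± 4.16 in OIR and 19.8 ± 4.57 in NORM, and Pkm, the last enzyme of glycolysis, at 17.5 ± 2.74 in OIR and 12.6 ± 2.96 in NORM. Basigin (Bsg), a partner of lactate transporters, was at 13.8 ± 2.0 in OIR and 9.52 ± 3.25 in NORM. Pfkl, the liver form of phosphofructokinase, was above all NORM libraries in 8 of 8 OIR libraries (2.85 ± 0.756 in OIR, 1.49 ± 0.205 in NORM) but had an adjusted p of 0.107 (limma). The glycolysis median was positive in both same-date pairs, 0.97 in the whole and 0.47 in the rod-depleted pair, where the medians of all genes were -0.04 and -0.02.

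Among HIF targets outside glycolysis, 3 of 17 tested members of a list of 26 rose and none fell, against 0.388% of all genes tested. The list's median log2 difference was 0.72, with all 17 positive. Bnip3 encodes a mitochondrial membrane protein that marks mitochondria for removal. It was at 13.0, 7.67 and 9.13 in OIR whole retina at P14, 3.87 and 5.25 in OIR whole retina at P17, and 8.93, 8.79 and 11.3 in OIR rod-depleted retina, against 2.53 to 3.38 in the 4 NORM libraries. Its lowest OIR values were those of whole retina at P17, which still lay above NORM (1.33 ± 0.24, adjusted p = 0.0129, limma). Fam162a, another mitochondrial protein induced by hypoxia, averaged 3.29 ± 0.992 in OIR and 1.15 ± 0.421 in NORM (1.40 ± 0.21, adjusted p = 0.00409, limma), with 7 of 8 OIR libraries above NORM. Vegfa, the vessel growth factor, averaged 2.35 ± 0.576 in OIR and 1.16 ± 0.335 in NORM (0.98 ± 0.19, adjusted p = 0.0218, limma). The Vegfa call held in 7 of the 12 fits that left out a library. In the same-date pairs 13 of 17 members were higher in the whole pair and 17 of 17 in the rod-depleted pair.

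The 6 tested genes of the HIF pathway itself did not pass, and Hif1a averaged 3.10 ± 1.07 in OIR and 3.2 ± 1.79 in NORM. An antisense RNA over Hif1a did: Gm15283 (chr12:73843039-73949814, minus strand) overlaps Hif1a (chr12:73901375-73947530, plus strand) by 46156 bases. Gm15283 averaged 1.5 ± 0.694 in OIR and 0.182 ± 0.129 in NORM, and each OIR library (0.689 to 2.62) lay above each NORM library (0 to 0.288; 2.14 ± 0.27, adjusted p = 0.000515, limma). Whether the authors' counting used strand is not given in the sources used here, so reads of the Hif1a locus cannot be assigned to a strand with certainty. Cox4i2, the hypoxic form of a cytochrome oxidase subunit, was above NORM in 8 of 8 OIR libraries, at 1.0 ± 0.566 in OIR and 0.247 ± 0.0497 in NORM, with an adjusted p of 0.0712 (limma).

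Promoters of 3 of these genes are shown because the genes rose together and HIF-1 is known to bind the letters ACGTG or GCGTG. The stretches run from 250 bases before to 50 after the gene start in RefSeq on GRCm38.p6, on the gene's own strand. Hk2 lies at chr6:82774405-82774704 (minus), Ldha at chr7:46845554-46845853 (plus) and Bnip3 at chr7:138909457-138909756 (minus). Capitals mark the letters ACGTG or GCGTG on either strand, and CACGTG reads as a match on both.
Hk2: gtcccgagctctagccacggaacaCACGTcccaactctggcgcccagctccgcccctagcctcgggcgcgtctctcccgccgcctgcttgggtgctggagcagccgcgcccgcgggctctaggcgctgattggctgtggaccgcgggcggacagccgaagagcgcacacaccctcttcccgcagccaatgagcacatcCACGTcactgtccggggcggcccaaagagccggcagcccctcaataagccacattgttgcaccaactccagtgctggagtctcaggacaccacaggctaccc
Ldha: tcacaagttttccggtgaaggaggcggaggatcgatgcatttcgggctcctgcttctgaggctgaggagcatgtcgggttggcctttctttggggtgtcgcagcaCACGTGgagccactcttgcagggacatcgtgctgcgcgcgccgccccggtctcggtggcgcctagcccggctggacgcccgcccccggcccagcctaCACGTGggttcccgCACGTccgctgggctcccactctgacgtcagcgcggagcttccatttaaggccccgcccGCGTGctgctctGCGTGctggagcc
Bnip3: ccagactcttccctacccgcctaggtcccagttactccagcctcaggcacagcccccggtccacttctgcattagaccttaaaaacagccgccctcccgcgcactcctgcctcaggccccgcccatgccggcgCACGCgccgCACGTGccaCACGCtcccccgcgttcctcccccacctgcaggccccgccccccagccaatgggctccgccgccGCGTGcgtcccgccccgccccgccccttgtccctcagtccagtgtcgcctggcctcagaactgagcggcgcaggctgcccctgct
Hk2 has 2 matches, Ldha 7 and Bnip3 5. These short letters occur in 43.8% of all 32851 RefSeq promoters of this length and in 65.4% of the 6882 promoters of genes tested. Of the 27 genes, 23 matched a promoter by name, and 27 of their 33 promoters (81.8%) held the letters. A match in such a window is a description of the sequence and does not show binding.

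In pyruvate entry and the citric acid cycle, 1 of 21 tested members rose and none fell, against 0.388% of all genes tested. The member that rose was Pdk1, a kinase that shuts pyruvate out of mitochondria. Pdk1 was at 0.723 to 1.67 in OIR libraries and 0 to 0.546 in NORM libraries, with averages of 1.06 ± 0.337 and 0.244 ± 0.227 (1.5 ± 0.24, adjusted p = 0.00605, limma). Of the 21 members 18 were negative, with a median of -0.25, and Mdh1, malate dehydrogenase, was at 9.72 ± 1.44 in OIR and 14.0 ± 3.87 in NORM without passing. No subunit of the respiratory chain or ATP synthase passed, although most were negative. In complex I, 41 of 43 members were negative with a median of -0.34, in complex III 8 of 9 (-0.33), in complex IV 12 of 13 (-0.43) and in ATP synthase 15 of 16 (-0.44). Cytosolic ribosomal proteins had no gene past the test and 62 of 68 negative (median -0.34). With library date as a block the complex I median was -0.04 and the ribosomal median 0.08, the reverse of its direction without the block, and in the same-date whole pair they were 0.02 and 0.31. In the same-date rod-depleted pair both were negative, with a complex I median of -0.22 (37 of 43 negative) and a ribosomal median of -0.10 (46 of 68 negative). Complexes III and IV and ATP synthase stayed negative with that block, at -0.19 each. The block takes its OIR effect from the same-date pairs at P14, so block and pairs are not separate evidence.

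**Figure D2:**
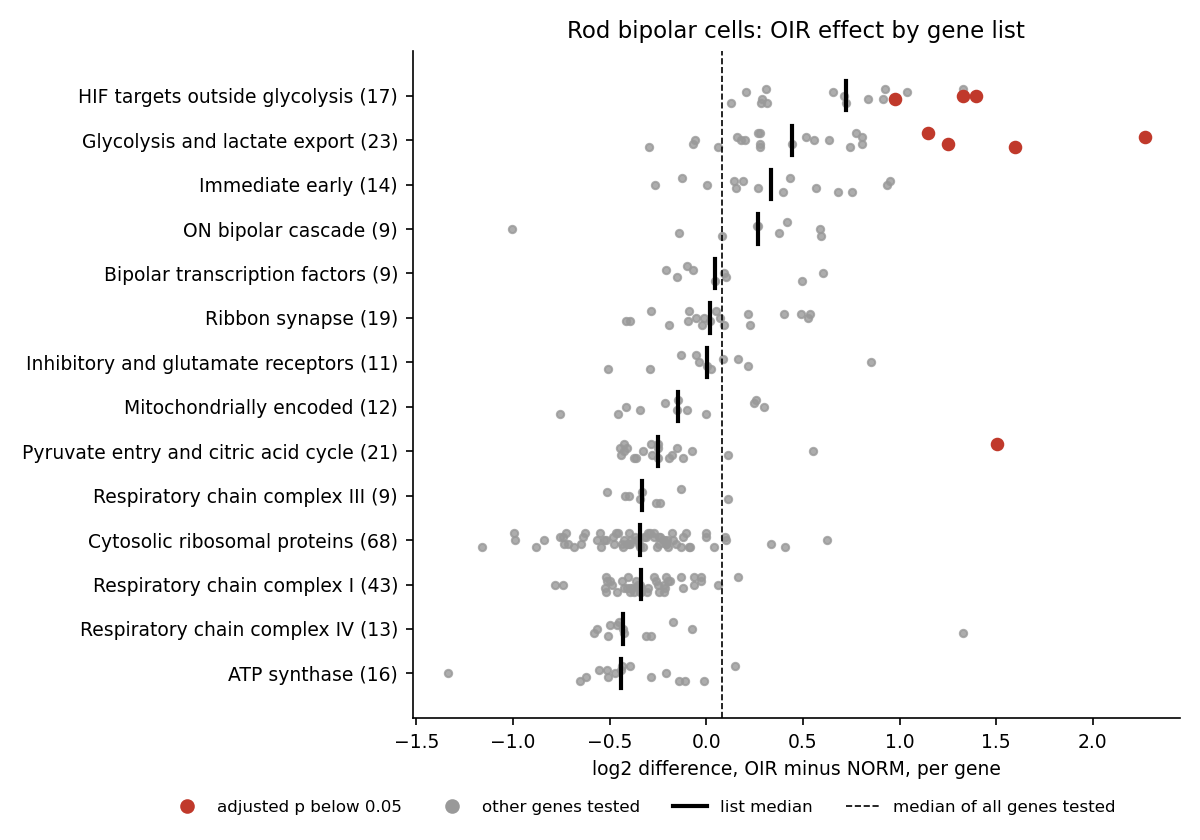
Log2 difference, OIR minus NORM, of each tested gene (horizontal axis) for 14 gene lists, with the number of tested members in brackets; red points passed at an adjusted p under 0.05, thick black bars are list medians and the dashed line is the median of all genes tested (0.08). HIF targets (median 0.72) and glycolysis (0.44) lie to the right, and the respiratory chain, ATP synthase and ribosomal lists to the left with no red point.

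Metallothioneins, small proteins that bind zinc and copper, were also higher. Mt1 was at 31.0, 12.8 and 15.3 per 10000 in OIR whole retina at P14, 9.35 and 17.3 in OIR whole retina at P17, and 30, 26.1 and 29.3 in OIR rod-depleted retina. In NORM, Mt1 was at 2.17 and 5.06 at P14 and 9.58 and 9.80 at P17. Only OIR whole retina replicate 1 at P17 overlapped the NORM range (log2 difference 1.89 ± 0.32, adjusted p = 0.00996, limma). Mt2 averaged 6.54 ± 2.92 in OIR and 2.20 ± 0.761 in NORM (1.5 ± 0.26, adjusted p = 0.00997, limma). Each was called in 10 of the 12 fits that left out a library. Müller cells held more Mt1 than members, 41.1 ± 17.4 in OIR and 32.9 ± 24.9 in NORM, and the part of free Müller RNA in the members' value was not tested.

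Both genes lie side by side on chromosome 8, Mt1 at chr8:94178839-94179138 (plus) and Mt2 at chr8:94172368-94172667 (plus) for the stretches shown. They are printed because metal-responsive promoters of these genes carry the letters TGCNCNC, to which the factor MTF1 is known to bind. Capitals mark TGCNCNC on either strand.
Mt1: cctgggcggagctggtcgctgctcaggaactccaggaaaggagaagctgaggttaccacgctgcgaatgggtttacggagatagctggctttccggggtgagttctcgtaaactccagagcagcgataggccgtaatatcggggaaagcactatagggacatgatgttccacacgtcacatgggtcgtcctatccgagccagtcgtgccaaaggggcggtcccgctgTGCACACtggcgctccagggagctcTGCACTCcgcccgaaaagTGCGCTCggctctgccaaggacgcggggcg
Mt2: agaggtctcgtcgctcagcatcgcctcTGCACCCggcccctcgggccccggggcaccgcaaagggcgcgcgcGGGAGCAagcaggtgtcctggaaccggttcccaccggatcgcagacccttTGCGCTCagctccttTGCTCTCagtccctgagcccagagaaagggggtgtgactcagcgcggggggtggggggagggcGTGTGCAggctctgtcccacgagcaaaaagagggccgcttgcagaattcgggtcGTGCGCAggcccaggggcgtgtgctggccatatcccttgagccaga
Mt1 has 3 matches and Mt2 has 6. The letters occur in 51.0% of all promoters of this length and in 60.6% of those of genes tested, so their presence alone sets neither gene apart.

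Several other genes that passed are not part of these lists. Matk, a tyrosine kinase that restrains Src family kinases, was at 0.545 to 2.31 in OIR libraries (median 1.27) and at 0.106, 0, 0.0626 and 0.0524 in NORM libraries. It was therefore close to absent in NORM members, with a log2 difference of 2.46 ± 0.27 (adjusted p = 0.000206, limma). Piwil4, a protein of the Piwi family that binds small RNAs in the germ line, was at 0.265 to 0.751 in OIR libraries. In NORM members it had 1 UMI in all, against 180 UMIs in OIR members, a ratio of 78.6 with an exact 95% counting interval of 13.9 to 3122 that covers counting error only. An antisense gene overlaps Piwil4 over 14417 bases, so without strand its reads are uncertain. Selenbp1, a selenium-binding protein, averaged 1.19 ± 0.320 in OIR and 0.233 ± 0.0852 in NORM (1.68 ± 0.23, adjusted p = 0.00121, limma).

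Ccdc136 was one of the more abundant of these genes, at 9.20 ± 1.34 in OIR and 4.45 ± 1.01 in NORM (1.04 ± 0.17, adjusted p = 0.00746, limma). Lonp1, a protease of the mitochondrial matrix, averaged 1.19 ± 0.325 in OIR and 0.343 ± 0.272 in NORM (1.59, adjusted p = 0.0161, limma). Prkab2, a subunit of the energy sensor AMPK, averaged 0.635 ± 0.25 in OIR and 0.103 ± 0.0948 in NORM, and Igf1r, the receptor for IGF-1, 0.634 ± 0.203 in OIR and 0.149 ± 0.149 in NORM. Igf1r held its call in 3 of the 12 fits that left out a library. A2m, a protease inhibitor, averaged 0.524 ± 0.372 in OIR and 0.00466 ± 0.00665 in NORM. In Müller cells, whose RNA can reach other droplets, A2m was at 0.627 ± 0.344 in OIR and 0.0458 ± 0.0469 in NORM, and the part of that RNA was not tested.

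Among genes of antigen presentation, 2 of 5 tested members of a list of 16 rose, against 0.388% of all genes tested. H2-K1, a classical class I heavy chain, averaged 0.377 ± 0.0965 in OIR and 0.0576 in NORM, but its call held in 4 of the 12 fits that left out a library. H2-Ab1, the beta chain of a class II molecule of antigen-presenting cells, was at 0.148 to 0.722 in OIR libraries and at 0, 0, 0.00976 and 0.00633 in NORM libraries (1.61 ± 0.25, adjusted p = 0.00409, limma). That is 169 UMIs in OIR against 2 in NORM, a ratio of 36.9 with a counting interval of 10.1 to 307. H2-Q7, a class Ib heavy chain of a multigene family, had 174 UMIs in OIR and 3 in NORM, a ratio of 25.3 (8.53 to 124). Near-identical class I genes share reads, so H2-K1 and H2-Q7 are uncertain. H2-K1, H2-Ab1 and H2-Q7 met the minimum mean over libraries only through their OIR level. The 2 of 5 and these ratios are therefore no separate support. Stat3, a transcription factor that answers cytokines, averaged 0.967 ± 0.320 in OIR and 0.251 ± 0.169 in NORM, and held its call in 2 of the 12 such fits.

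Genes that make the cell a rod bipolar neuron gave no call. Over all 6965 genes tested the share called was 0.388%, so short lists would mostly hold none. The absence of calls, here and on the output side below, is therefore no result about these genes. In the mGluR6 cascade, 4 of 15 list members belong to the rule, and 0 of the 9 others that were tested passed. Grm6 averaged 11.8 ± 2.73 in OIR and 8.57 ± 3.02 in NORM, with 5 of 8 OIR libraries above NORM. Gpr179 averaged 16.3 ± 3.98 in OIR and 13.1 ± 5.22 in NORM, and the G protein subunits Gnao1 26.7 ± 6.04 in OIR and 24.5 ± 6.39 in NORM and Gnb3 23.8 ± 2.92 in OIR and 27.4 ± 5.55 in NORM. In all of these the ranges of the groups overlapped. A call missed at this number of libraries does not show equal levels. The median of the cascade was 0.27 without and -0.10 with library date as a block, where only the same-date pairs at P14 inform it.

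On the output side, 0 of 19 tested ribbon synapse genes passed. Snap25, a membrane fusion protein, averaged 23.9 ± 2.67 in OIR and 31.7 ± 5.19 in NORM, with 7 of 8 OIR libraries below NORM and an adjusted p of 0.206 (limma). Complexin 3 (Cplx3) averaged 16.2 ± 4.25 in OIR and 23.1 ± 6.24 in NORM, and the calcium-binding protein Cabp5 16.1 ± 2.57 in OIR and 16.9 ± 2.79 in NORM. Of the receptors that amacrine cells act on, 0 of 11 tested members passed. Gabrr1, a subunit of the GABA-C receptor of the axon terminal, averaged 4.59 ± 0.430 in OIR and 5.37 ± 1.55 in NORM, and Gabrr2 3.01 ± 0.708 in OIR and 4.61 ± 1.54 in NORM. Among transcription factors 0 of 9 passed. Otx2, which photoreceptors and bipolar cells need to form, averaged 7.59 ± 1.75 in OIR and 7.72 ± 2.76 in NORM.

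**Figure D3:**
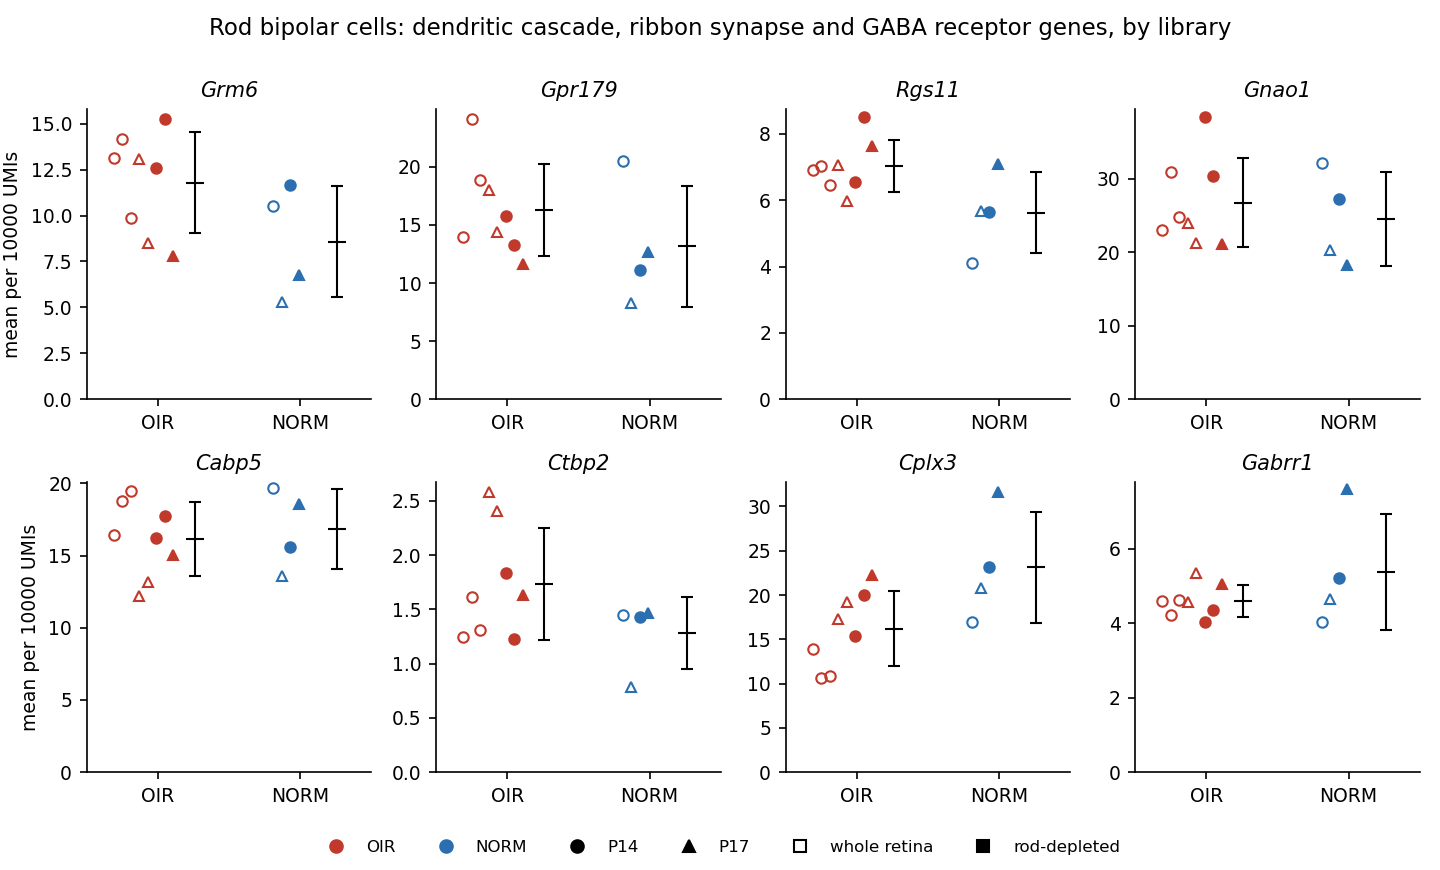
Mean level per 10000 UMIs (vertical axes, linear) of 8 genes of the dendritic cascade, the ribbon synapse and the GABA-C receptor in the rod bipolar cells of each library, with symbols as in the plot of genes that passed and bars for mean and SD. OIR and NORM values overlap in each panel, as for Gpr179 (16.3 ± 3.98 in OIR, 13.1 ± 5.22 in NORM), and none of the 8 genes passed the test.

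At P14 alone, 15 genes passed (0.215% of 6965), 13 higher (0.187%) and 2 lower (0.0287%) in OIR. Mt1 led, at 12.8 to 31.0 in OIR and 2.17 and 5.06 in NORM (2.70 ± 0.32, adjusted p = 0.000589, limma), followed by Hk2, Selenbp1, Piwil4, Matk, Pfkp, Fam162a, Mt2, Gm15283, Ldha, Bnip3, H2-Ab1 and A2m. The lower genes were Pcp4l1 and Gm10036. Pcp4l1, a small protein related to the calmodulin regulator Pcp4, was at 0.382 to 0.698 in the 5 OIR libraries at P14 and at 2.68 and 1.69 in the 2 NORM libraries (-1.63 ± 0.31, adjusted p = 0.0217, limma). Gm10036 rested on 1 library, NORM whole retina at P14 with 4.60. The P14 count was 0 without that library and 9 without NORM rod-depleted retina.

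At P17, 191 genes passed (2.74%), 168 higher (2.41%) and 23 lower (0.33%) in OIR, on 3 OIR and 2 NORM libraries. Hk2, Pfkp and Matk were among the higher genes, with log2 differences of 2.08 ± 0.36, 1.56 ± 0.27 and 2.48 ± 0.40 (adjusted p = 0.0138 each, limma). Ywhab, a 14-3-3 protein, was at 9.20, 9.70 and 7.67 in OIR and 2.49 and 2.93 in NORM. Lower genes were led by Pde6g, a phototransduction gene of rods, which was at 14.1 in NORM whole retina at P17, the library with the most rod RNA in its members. The count depended on single libraries: it was 0 without NORM whole retina, 2461 without NORM rod-depleted retina, and 2 and 0 without OIR whole retina replicate 1 and 2. At P17 depth and oxygen in whole retina cannot be told apart, and the part of library date, not given for OIR there, was not tested.

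The difference between the OIR effects at P17 and P14 gave 0 of 6965 genes (0%; limma; 811 at an unadjusted p under 0.05). It gave 1290 without NORM rod-depleted retina at P17 and 13 without NORM rod-depleted retina at P14. Mt1 had log2 differences of 0.91 ± 0.35 at P17 and 2.70 ± 0.32 at P14. P17 against P14 over both oxygen groups also gave 0 genes (0%; limma; 815 at an unadjusted p under 0.05). The smallest p there was that of Slc5a8, a lactate and monocarboxylate transporter, at 0.905, 1.07 and 0.428 in OIR and 1.42 and 1.04 in NORM at P17, and at 0.0782 to 0.365 in OIR and 0.146 and 0.227 in NORM at P14. All P17 libraries lay above all P14 libraries, with a log2 difference of 1.56 ± 0.26 and an adjusted p of 0.0644 (limma). It is named although it missed the threshold, and was chosen after its values were seen.

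Rod depletion gave 137 genes past the test in members (1.97%), 36 higher (0.517%) and 101 lower (1.45%) in rod-depleted retina. With TMM scaling, which moved the median of all genes to 0.15 on the log2 scale, against -0.01 without it, the balance turned round, with 286 higher and 72 lower. The count was 46 without OIR rod-depleted replicate 2 at P14 and 650 without NORM whole retina at P17, the lowest and highest with a library left out. The lower genes were led by rod genes. Sag was at 0.135 to 1.82 in members of rod-depleted retina and 4.84 to 19.2 in members of whole retina (-3.43 ± 0.32, adjusted p = 8.58e-06, limma), and Gnat1 fell by 3.80 on the log2 scale. Genes that rod bipolar cells themselves can express also fell. Hif1a was at 1.31 to 2.29 in rod-depleted and 2.97 to 5.42 in whole retina (-1.02 ± 0.17, adjusted p = 0.00267, limma), and Rims2, a scaffold of the release site, at 0.719 to 1.38 in rod-depleted and 1.31 to 2.79 in whole retina. With TMM scaling Hif1a kept its call (-0.81, adjusted p = 0.011, limma) and Rims2 lost it (-0.62, adjusted p = 0.0906, limma). These fell together with the rod genes, and the part of rod RNA in them was not tested. Higher genes included Rgs5 of pericytes, at 0.369 to 3.60 in rod-depleted and 0 to 0.335 in whole retina, and the globin gene Hbb-bs, at 0.727 to 5.94 in rod-depleted and 0 to 1.21 in whole retina. Of 68 ribosomal protein genes 7 were higher and none lower, with a list median of 0.70 against -0.01 over all genes.

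Comparison with cone bipolar cells gave no gene whose OIR effect differed: 0 of 8100 genes passed (0%; limma on within-library differences; 607 at an unadjusted p under 0.05). Hk2 was at 1.55 ± 0.891 in OIR and 0.0948 ± 0.159 in NORM cone bipolar cells, and its OIR effect there was 2.50 ± 0.37 against 2.27 ± 0.24 in members. Mt1 had an effect of 1.95 ± 0.31 in cone bipolar cells and 1.89 ± 0.32 in members. Igf1r had a difference of 1.64 that did not pass (adjusted p = 0.54, limma). Cone bipolar cells numbered 1599, which limits what this comparison can detect.

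Against Müller cells, the glia that span the retina, the difference between the OIR effects passed for 11 of 8632 genes (0.127%). On the scale of log2(mean + 0.2) it was positive, toward members, for 5 genes (0.0579%) and negative, toward Müller cells, for 6 (0.0695%). Matk had a difference of 2.31 ± 0.34 between the effects (adjusted p = 0.0128, limma), and its level in Müller cells was 0.273 in OIR and 0.275 in NORM. Piwil4 had a difference of 2.05 ± 0.25 (adjusted p = 0.00146), with Müller levels of 0.0598 in OIR and 0.164 in NORM. Hk2 had a difference of 1.95 ± 0.34 (adjusted p = 0.0289, limma), with Müller levels of 0.276 in OIR and 0.207 in NORM. Aldoc, at 13.5 ± 4.0 in OIR and 16.3 ± 1.69 in NORM Müller cells, differed by 1.48 ± 0.24 (adjusted p = 0.0203), and Cox4i2 by 1.46 ± 0.27 (adjusted p = 0.0391). In Müller cells alone the OIR effect was 0.32 ± 0.28 for Hk2 and -0.23 ± 0.17 for Aldoc, neither past the test.

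The 6 genes with a negative difference were at averages of at most 0.185 in OIR members, below the 0.2 added before taking logs. At such levels the added value makes the measured effect in members too small, so a smaller fold change in members than in Müller cells is not shown for these genes. Ndufa4l2, a hypoxia-induced mitochondrial protein, was at 0.185 in OIR and 0.0152 in NORM members, and at 8.72 ± 3.25 in OIR and 0.767 ± 0.243 in NORM Müller cells (difference -2.37 ± 0.27, adjusted p = 0.00146, limma). Adm, a peptide that dilates vessels, was at 0.0285 in OIR and 0.0179 in NORM members and at 1.98 in OIR and 0.233 in NORM Müller cells (-2.31 ± 0.38, adjusted p = 0.0203, limma). Apln, an angiogenic peptide, was at 0.0370 in OIR and 0.00176 in NORM members and at 1.43 in OIR and 0.177 in NORM Müller cells (-1.86 ± 0.30, adjusted p = 0.0203, limma). By these averages the fold of Ndufa4l2 and of Apln in members was no smaller than that in Müller cells, but this depends on the measure. Apln had 16 UMIs in OIR and 2 in NORM members, a ratio of 3.49 with an exact 95% counting interval of 0.822 to 31.3. Ndufa4l2 had 106 UMIs in OIR and 7 in NORM members. Which class has the larger fold is therefore not shown for either gene. Trf, Nxph4 and Rras were the others. The difference for Vegfa did not pass, with effects of 0.98 ± 0.19 in members and 1.16 ± 0.26 in Müller cells, where its level was 16.0 ± 4.12 in OIR and 7.54 ± 3.48 in NORM. The count of 11 was 2 without NORM rod-depleted retina at P14, the lowest when libraries were left out in turn, and 11 at most.

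**Figure D4:**
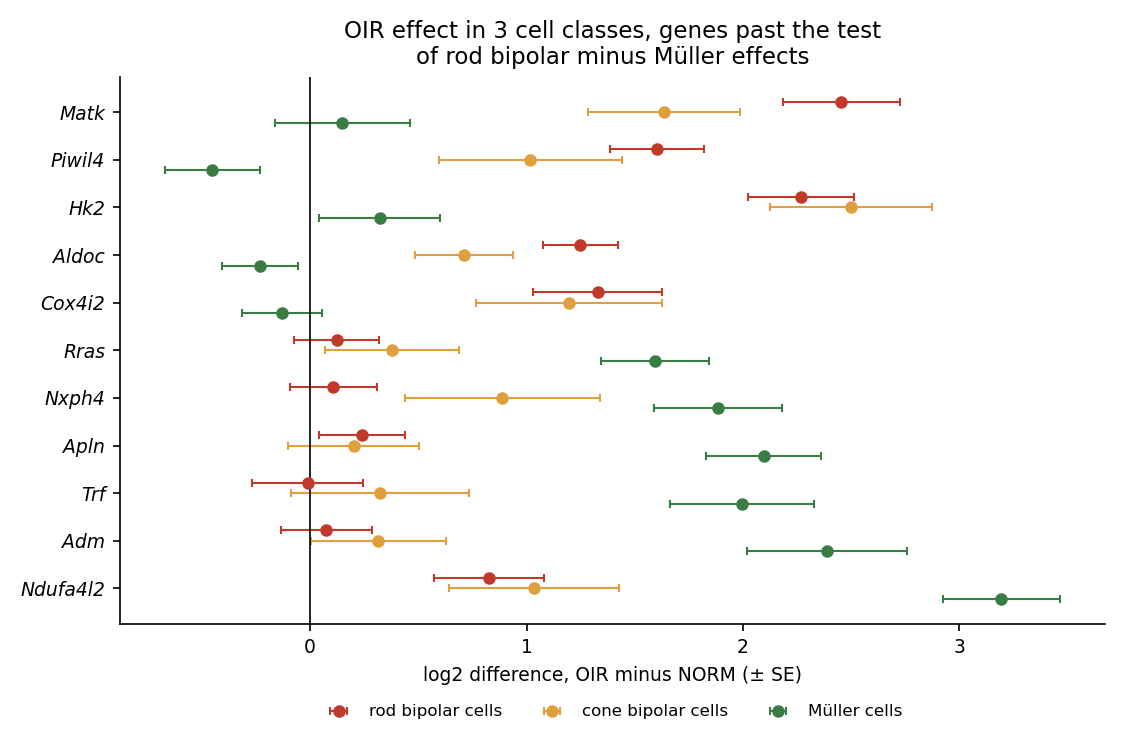
Log2 difference, OIR minus NORM, with its SE (horizontal axis) for the 11 genes past the test of the difference between the effects in rod bipolar (red) and Müller cells (green), on the scale of log2(mean + 0.2), with cone bipolar cells (orange) for comparison. Hk2 is at 2.27 in rod bipolar, 2.50 in cone bipolar and 0.32 in Müller cells, and Ndufa4l2 at 0.83 in rod bipolar and 3.2 in Müller cells, although its level in rod bipolar cells is below the 0.2 added.

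The OIR difference could be spread over all members or held by some of them. Each member with at least 500 UMIs (4069 cells, which leaves out 103 of OIR and 60 of NORM) was thinned to 500, and the UMIs of 50 genes of glycolysis and HIF targets were summed. The mean sum ran from 6.11 to 9.93 UMIs in OIR libraries (median 8.15) and from 4.76 to 6.13 in NORM libraries (median 6.04). The variance over the mean, which is 1 for pure counting noise, was 1.94 to 2.71 in OIR (median 2.42) and 1.26 to 1.39 in NORM (median 1.33). All 8 OIR libraries exceeded all 4 NORM libraries in this ratio, and 7 of 8 did in the mean, where OIR whole retina replicate 1 at P17 (6.11) lay just below NORM whole retina at P17 (6.13). The 10th percentile of the sum was 2 to 4 UMIs in OIR and 2 to 3 in NORM, while the 90th percentile was 12 to 17 in OIR and 8 to 10 in NORM. The median over libraries was 3.25 in OIR and 2 in NORM for the 10th percentile, and 14 in OIR and 9.3 in NORM for the 90th, so both ends of the distribution were higher in OIR. These values are a description and carry no test, because the genes were chosen with their differences known.

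**Figure D5:**
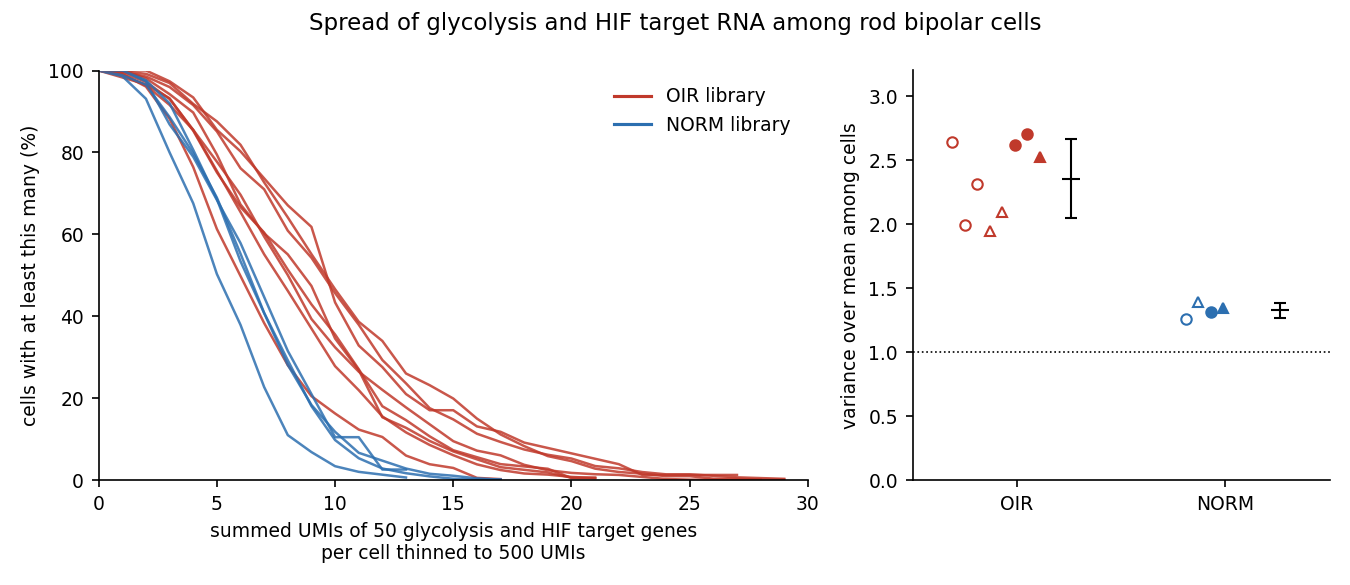
Left, share of rod bipolar cells (percent) with at least the number of summed UMIs on the horizontal axis for 50 glycolysis and HIF target genes in cells thinned to 500 UMIs, 1 line per library; right, variance over mean of that sum by library, with circles for P14, triangles for P17, open symbols for whole and filled ones for rod-depleted retina, bars for mean and SD and a dotted line at 1. OIR curves reach further right and OIR ratios (1.94 to 2.71) lie above NORM ratios (1.26 to 1.39).

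The same ratio was taken for other gene groups. For the mGluR6 cascade the variance over the mean was 1.14 to 1.45 in OIR and 1.1 to 1.63 in NORM, for ribbon synapse genes 0.981 to 1.35 in OIR and 1.06 to 1.17 in NORM, and for ribosomal proteins 1.2 to 2.68 in OIR and 1.66 to 2.20 in NORM. For nuclear genes of the respiratory chain and ATP synthase it was 1.81 to 2.28 in OIR and 1.16 to 2.0 in NORM. In each of these the groups overlapped. The ratio grows with the mean, so the squared coefficient of variation beyond counting noise was also taken. It was 0.122 to 0.198 in OIR and 0.0519 to 0.0643 in NORM for the 50 genes, with no overlap. For the respiratory chain and ATP synthase it was 0.0394 to 0.0962 in OIR and 0.01 to 0.0408 in NORM, with 7 of 8 OIR libraries above NORM, and for HIF targets outside glycolysis alone 4 of 8 were above NORM. Whether the spread of the 50 genes differed more than that of other groups was not tested. By single genes, Pfkp had a UMI in 39.0% to 60.3% of thinned members in OIR libraries and 17.3% to 27.6% in NORM libraries. Hk2 had one in 0.906% to 7.69% in OIR and 0% to 0.385% in NORM, and Bnip3 in 16.6% to 46.1% in OIR and 11% to 21.1% in NORM. At least 1 of Hk2, Pfkp, Pdk1 and Bnip3 was seen in 57.4% to 74.4% of members in OIR and 30.8% to 36.8% in NORM. If the 4 genes were detected independently of each other, the shares would be 57.7% to 77.1% in OIR and 31.2% to 39.8% in NORM. No cell class here is known to lack these metabolic genes, so a share owed to free RNA was not set.

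Members above and below their own library's median of this sum were then compared across all genes outside the list, as a comparison added after the data had been seen. In OIR, 10 of 4023 genes differed (0.249%, limma, with 221 at an unadjusted p under 0.05). The effect is the mean over the 8 OIR libraries. The spread behind each p-value came from a joint fit of all 12 libraries, OIR and NORM. Mif, a cytokine-like protein, averaged 21.1 ± 8.09 in cells above and 11.6 ± 5.03 in cells below the median (0.86 ± 0.09, adjusted p = 1.01e-05, limma), and was higher above the median in 8 of 8 libraries. Mt1 was at 32.5 above and 11.8 below (1.38 ± 0.15), Mt2 at 10.5 above and 4.16 below, and Higd1a, a hypoxia-induced mitochondrial protein, at 5.91 above and 1.92 below. Gm15283, Kcne2, Scg2, Vdac1 and Mgarp were also higher in cells above the median, and Meg3 was lower, at 22.8 above and 30.3 below. Mt1 and Mt2 were thus higher in the OIR members that held more RNA of the listed genes.

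In NORM the same split gave 0 of 4023 genes (0%, limma, with 402 at an unadjusted p under 0.05). That effect is the mean over the 4 NORM libraries, from the same joint fit. The OIR and NORM differences differed in 0 genes (0%, limma, with 316 at an unadjusted p under 0.05). Mt1 was at 6.70 above and 6.08 below the median in NORM, and its difference between OIR and NORM was 1.46 ± 0.26 (adjusted p = 0.0536, limma). Müller marker sums differed in direction between OIR libraries. In whole retina at P17 they were 12.2 above and 4.40 below the median in replicate 1, and 9.49 and 8.39 in replicate 2. In whole retina at P14 they were 4.37 and 8.36, 3.87 and 4.04, and 8.36 and 8.45 in replicates 1, 2 and 3. In rod-depleted retina they were 10.9 and 6.99, and 10.1 and 8.52, at P14, and 12.9 and 15.5 at P17. The part of free Müller RNA in the differences between these cells was not tested.

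The share of cells that met the rule followed the rod depletion. It was 28.9% ± 3.29 in rod-depleted retina (SD, n = 5) and 8.70% ± 3.18 in whole retina (n = 7) of cells with at least 200 genes, and 21.8% ± 2.61 in rod-depleted and 7.88% ± 2.59 in whole retina after thinning to 500 UMIs. Within age and fraction, the thinned share was 0.826 percentage points lower in OIR than in NORM (exact permutation test within strata, two-sided p = 0.5, where 72 arrangements allow no p below 0.0139). Unthinned it was 2.82 points higher in OIR (exact permutation p = 0.0833), and thinned but without NORM whole retina at P17 it was 0.297 points higher. No difference in share was detectable with these libraries.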

How the data were processed

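A table with 31271 cells and 21408 genes was used. The values the authors deposited are natural logs, ln(1 + UMI count / cell total × 10000). Undone, they sum to 10000 in each cell, and 100% of the values above 0 are whole UMIs to within 0.05. The submitters' processing notes name bcl2fastq, STAR 2.4.0 and the builds mm10 and GRCm38. Strand handling, multi-mapping and any removal of doublets: not given in the sources used here. Column names placed each cell in its library. A further 7 sets with 5799 columns fitted the name of none and were left out. Gene positions are from GENCODE on GRCm38.

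Cells were assigned by the rule in the text; cone bipolar, Müller and rod cells by like counts of their own markers. No doublet was removed in the main results (a caller in Scanpy 1.11.5 marked 44 members). Normalised values were averaged over the members of each library and tested as log2(mean per 10000 + 0.2), which understates the change of low genes, with limma 3.58.1 in R 4.3.3, with a variance trend and two-sided tests. Oxygen, age and fraction entered additively over 12 libraries (8 residual degrees of freedom), or an oxygen effect per age. A gene was tested if its mean over libraries was at least 0.2 and it was detected in 3 or more libraries. With 8 OIR and 4 NORM libraries, a gene seen only in OIR met this more easily than a gene seen only in NORM. P-values were adjusted by Benjamini-Hochberg over all genes tested at 0.05. Class differences used the within-library log2 difference, for genes that met these limits in either class. Cells above and below the median were compared on log2(mean + 0.5), for genes whose mean was at least 0.5 and that were detected in 6 or more libraries. The test was checked on simulated data. Python 3.11.15 with numpy 2.4.6, pandas 2.3.3, scipy 1.17.1 and matplotlib 3.10.9 did the rest. Intervals for UMI ratios are exact at 95%, and depth sets how low a level can be seen.

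The members and the gene lists were chosen with earlier results of these data known. Genes named are list members that passed, the 12 genes with the smallest p per direction for oxygen and up to 8 for other comparisons, and up to 4 of the most abundant list members that did not pass; others were chosen after their values were seen. Alternatives were another pseudocount, no minimum mean, summed UMIs, TMM scaling, thinning, stricter cell rules, blocks for replicate number or library date, and each library left out in turn.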

Additional observations from a re-analysis of the deposited data

Results flagged for a closer look

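The difference between the OIR effects in rod bipolar and Müller cells passed for 11 genes, by a test of the difference itself within libraries (limma on log2(mean + 0.2), adjusted over 8632 genes). The effect in rod bipolar cells minus that in Müller cells was 2.31 for Matk, 2.05 for Piwil4, 1.95 for Hk2, 1.48 for Aldoc and 1.46 for Cox4i2 on the log2 scale. It was -2.37 for Ndufa4l2, -2.31 for Adm, -2.01 for Trf, -1.86 for Apln, -1.78 for Nxph4 and -1.47 for Rras, but these 6 genes averaged at most 0.185 in OIR members, where the added 0.2 makes the members' effect too small, so a larger fold change in Müller cells is not shown. Piwil4 and Ndufa4l2 kept their call under each of the 17 alternatives run, whereas Cox4i2 kept it in 3 and Rras in 2. No labelled group of libraries held more than 3, so no single library was tested as standing apart.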

How the results depend on the processing

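The count of genes that differed between OIR and NORM, 27, was 17 with no minimum mean, 17 after thinning cells to 500 UMIs, 17 with at least 3 of the first 4 markers required, 11 with the rule applied after thinning (added after the data were seen), and 9 to 31 with a library left out. It was 24 with a pseudocount of 1, 31 on summed UMIs, 30 with TMM and 27 without called doublets. It was 26 without cells that carried rod or Müller markers and 21 with library date as a block. Of those 21 genes, 15 were among the 27, and only the same-date pairs at P14 inform the OIR effect in that fit. Lower genes were called in some settings, 2 with library date as a block and 1 with a pseudocount of 1. There was also 1 each without NORM whole retina at P14, NORM whole retina at P17, OIR whole retina replicate 1 at P14 or OIR rod-depleted retina at P17. None of the 27 genes changed direction: over 620 alternatives for them, 467 kept the call and 153 lost it. At P14 the count of 15 was 7 with no minimum mean and 0 to 20 with a library left out. At P17 the count of 191 was 100 with a pseudocount of 1, 0 with no minimum mean and 0 to 2461 with a library left out. The difference between the ages' effects gave 0 to 1290 genes with a library left out. P17 against P14 gave 6 genes with a pseudocount of 1, 10 on summed UMIs, 2 with TMM and 0 to 8 with a library left out. Rod depletion gave 358 genes with TMM (286 higher, 72 lower) and 46 to 650 with a library left out. The difference from cone bipolar cells gave 0 to 1, and that from Müller cells 19 with a pseudocount of 1, 3 with no minimum mean, 5 on summed UMIs and 2 to 11 with a library left out. The OIR minus NORM share of members was reversed without thinning (2.82 points) and was -1.63 to 0.297 points with a library left out, positive without NORM whole retina at P17. The excess squared coefficient of variation of the summed list was higher in OIR by 0.104, by 0.0793 at 1000 UMIs, where 1 library kept 8 cells, and by 0.0931 to 0.110 with a library left out. Cells above against below the median gave 16 genes with a stricter split (only the top and bottom parts of each library) and 7 to 18 with a library left out. The causes were not tested.

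Replicate numbers do not pair these samples, since each NORM library is replicate 1. With the replicate number as a block, 7 genes differed between OIR and NORM, 1 at P14, 0 at P17, 48 with rod depletion and 3 between rod bipolar and Müller cells. Depth limits low genes most, and NORM whole retina at P17 rests on 47 members. A gene with a mean under 0.2 over libraries was not tested, except where no minimum mean was set. For class differences, a mean of 0.2 in either class was enough.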

Other observations

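Class II RNA in OIR members was uneven between its genes. H2-Ab1 had 169 UMIs in OIR members, whereas its partner chain H2-Aa and the other beta chain H2-Eb1 had 1 UMI each in OIR and 1 each in NORM members, and Cd74, the invariant chain, had 4 UMIs in OIR and 0 in NORM. In cone bipolar cells H2-Ab1 averaged 0.673 ± 0.517 in OIR and 0 in each NORM library, and in Müller cells 0.144 ± 0.101 in OIR and 0.113 ± 0.106 in NORM. These genes were chosen after their values were seen.

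Pdk1 and Pfkp were also seen in rods, with mean levels of 0.442 in OIR and 0.0971 in NORM for Pdk1 and 5.6 in OIR and 2.25 in NORM for Pfkp, as values without a test (5 OIR and 3 NORM libraries with at least 20 rods). Hk2 was at 1.44 in OIR and 1.17 in NORM rods, so the near absence of Hk2 in NORM members was not shared by rods. Ldha was at 21.8 in OIR and 21.8 in NORM rods.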
